A study of Homo sapiens with 3 samples.

Results

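NPY encodes neuropeptide Y, and it was examined here as 1 of 33423 genes with at least 1 unique molecular identifier (UMI) in any of 3 single-cell RNA-seq libraries of prostate cancer cell lines. It was chosen by its ratio between the 2 VCaP libraries, so its lower level after enzalutamide (ENZ) is a description and was given no test. The libraries were made by Drop-seq, in which droplets pair a cell with a barcoded bead and each captured mRNA molecule receives a UMI. VCaP parental held VCaP cells kept for 48 h in the vehicle, 0.1% DMSO. VCaP–ENZ48 held VCaP cells kept for 48 h in 10 µM ENZ, a drug given against prostate cancer, and LNCaP–ENZ168 held LNCaP cells kept for 168 h in 10 µM ENZ. Both lines derive from metastases of human prostate cancer, were labelled as sensitive to ENZ, and grew in medium with 10% serum. VCaP carries a TMPRSS2–ERG fusion and LNCaP does not. Each group was 1 library of 1 line, so no value has a replicate check, cells are not replicates, and every interval given is a 95% interval that covers counting error only. No LNCaP library without ENZ was analysed here, so for LNCaP–ENZ168 the line and the treatment time cannot be told apart.

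Neuropeptide Y is a short amidated peptide made from a longer precursor, which is cut by prohormone convertases, trimmed by carboxypeptidase E and amidated in secretory granules. It acts on G protein-coupled receptors of the Y family and is best known for its part in feeding, stress and vascular tone. In the prostate it is made by luminal epithelial cells and by nerves, and its mRNA is abundant in many primary prostate cancers.

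The gene lies on chromosome 7 of GRCh38, from 24284188 to 24291862 on the plus strand, with 4 exons and 97 coding codons over 7675 bases. The stretch before its start, chr7:24283940-24284187, is shown because NPY was transcribed in VCaP and not detected in LNCaP–ENZ168, and it is taken from the RefSeq promoter table on GRCh38.p14, 5′ to 3′. Capitals mark GGAAG, a core of sites bound by ETS factors such as ERG.

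NPY promoter: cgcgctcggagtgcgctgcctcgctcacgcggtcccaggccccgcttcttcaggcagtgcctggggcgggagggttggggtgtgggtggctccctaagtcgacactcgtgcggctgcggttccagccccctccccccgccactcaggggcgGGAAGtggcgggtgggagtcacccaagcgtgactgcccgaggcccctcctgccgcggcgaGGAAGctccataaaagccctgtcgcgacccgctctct

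GGAAG occurred 2 times in these 248 bases, both times on the plus strand, and it was present on either strand in 64.7% of 35116 promoters of the same length. These are letter matches only, and no binding was measured in these libraries. The GC content of the stretch was 71.4%.

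The cells matched the labelled lines. ERG was at 105 CPM (UMIs of the gene scaled to a common library total) in VCaP parental, 57.1 CPM in VCaP–ENZ48 and at 0 UMIs in LNCaP–ENZ168. The luminal keratin KRT18 was at 321, 404 and 460 CPM in the same order. KLK2, a secreted prostate protease, was at 1554, 3053 and 27.1 CPM, and KLK3, which encodes prostate-specific antigen, at 7.64, 10.9 and 91.9 CPM. Of other cell types, the basal markers KRT5 and TP63 were at 0 UMIs in all 3 libraries, KRT14 had 25, 9 and 4 UMIs (1.28, 0.629 and 0.634 CPM) and KRT15 had 1 UMI, in VCaP–ENZ48. The leukocyte marker PTPRC had 1, 1 and 0 UMIs. The summed stromal markers were at 21.5, 26.4 and 1.90 CPM, nearly all of it LUM in the VCaP libraries. In LNCaP–ENZ168 most of it was COL1A1, with 10 UMIs, and LUM had 2 UMIs. Each library listed 1000 barcodes, of which 997, 947 and 944 were kept as cells, with median depths of 17817, 11224 and 5389 UMIs. Any pair of libraries shared 1 barcode, and 0 of the shared barcodes were kept in both.

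NPY was among the most abundant mRNAs of VCaP parental, was about 20-fold lower in VCaP–ENZ48 and was not detected in LNCaP–ENZ168. VCaP parental held 43174 NPY UMIs of 19515202, or 2212 CPM (exact Poisson interval 2192 to 2233). This was 0.221% of its UMIs and the 55th highest of 27329 genes, or the 9th highest without mitochondrial and ribosomal protein genes. VCaP–ENZ48 held 1575 NPY UMIs of 14301287, or 110.1 CPM (104.8 to 115.7), where NPY ranked 1246th. LNCaP–ENZ168 held 0 of 6313283 UMIs, and a count of 0, taken as at most 3 counts, allows up to 0.475 CPM. Its exact Poisson upper limit was 0.584 CPM. The intervals of the 3 libraries do not overlap, but they cover counting error only. NPY was chosen by its ratio between the VCaP libraries, so nothing is read from this. Each UMI counts an mRNA molecule from its end, so levels of different genes need no scaling for length.

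**Figure D1:**
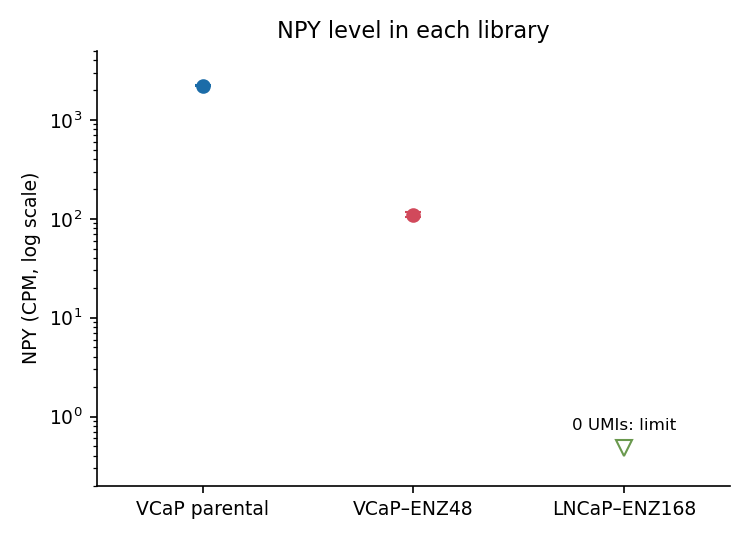
NPY level in each library, in CPM on a log scale, with exact Poisson 95% intervals as bars (smaller than the points). The open triangle is the limit for LNCaP–ENZ168, with its 0 UMIs taken as at most 3 counts. VCaP parental lies at 2212 CPM, VCaP–ENZ48 at 110.1 CPM and the limit at 0.475 CPM.

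The log2 ratio of CPM + 1 between VCaP–ENZ48 and VCaP parental was -4.32 (exact conditional interval -4.40 to -4.26), and the ratio of plain CPM was 20.1-fold lower (19.1 to 21.1). Over the 7729 genes whose mean CPM in both libraries was 10 or more, the median was -0.066. Of these genes, 523 (6.77%) were at least 2-fold lower and 633 (8.19%) at least 2-fold higher. NPY was in the first set by its selection, so nothing is read from these shares for it. The split moved with the scaling. With TMM factors 1032 genes were lower and 472 higher, with median-of-ratios factors 919 and 519, and with a minimum of 50 CPM 245 and 146. With a minimum of 1 CPM 699 genes were lower and 1937 higher. Relative to plain CPM, TMM shifted the median of the same genes by -0.28, median-of-ratios by -0.22 and leaving out mitochondrial and ribosomal protein genes by 0.13. The NPY log2 ratio was between -4.61 and -4.19 over the alternatives of the closing section. Bands of cells with more cell cycle mRNA, described below, fell outside this range, at -4.04 and -2.03.

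NPY in LNCaP–ENZ168 was at least 232-fold lower than in VCaP–ENZ48 and at least 4656-fold lower than in VCaP parental, computed against the limit of 3 UMIs in the library. Of 1628 genes with at least 100 CPM in VCaP parental, 6 (0.369%) had 0 UMIs in LNCaP–ENZ168. These were NPY, ITM2A, ADIRF, MT1E, the granin SCG3 and ERG, and NPY was the most abundant of them in VCaP parental. The others were closer to each other in the 2 VCaP libraries. ITM2A was at 1396 CPM in VCaP parental and 1300 CPM in VCaP–ENZ48, and ADIRF at 1141 and 852 CPM. MT1E, a metallothionein, was at 422 and 206 CPM.

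Nearly every VCaP parental cell held NPY, but in very unequal amounts. A UMI of NPY was found in 977 of 997 cells (Clopper-Pearson interval 96.9 to 98.8%). The median cell had 29 NPY UMIs, the cells at the 10th and 90th percentiles had 4 and 100, and the highest had 481. The 99 cells with the most NPY held 36.3% of its UMIs.

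In VCaP–ENZ48 most cells had no NPY UMI and a few had many. NPY was found in 331 of 947 cells (35.0%, 31.9 to 38.1%), with a median of 0 UMIs, a 90th percentile of 4, a 95th percentile of 8 and a maximum of 89. At least 5 UMIs were found in 79 cells (8.34%) and at least 10 in 40 cells (4.22%). The 94 cells with the most NPY held 77.8% of its UMIs. LNCaP–ENZ168 had 0 positive cells of 944, which allows a share of cells with a UMI of up to 0.318% when 0 is taken as at most 3 cells (Clopper-Pearson upper limit 0.390%). At a median depth of 5389 UMIs this limits cells with a UMI, not cells that express the gene. Free RNA can place a UMI in a cell that does not express the gene. Since each library holds a single line, none contained a cell type known to lack NPY, so the part of free RNA in the VCaP shares was not tested. The LNCaP–ENZ168 share of 0 comes from a separate library of lower depth.

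To compare cells of equal depth, each cell was thinned at random to 2000 UMIs, which left out 0, 30 and 1 cells in VCaP parental, VCaP–ENZ48 and LNCaP–ENZ168. NPY was then found in 815 of 997 VCaP parental cells (81.7%, 79.2 to 84.1%), in 113 of 917 VCaP–ENZ48 cells (12.3%, 10.3 to 14.6%) and in 0 of 943 LNCaP–ENZ168 cells. The mean was 4.44 UMIs per cell in VCaP parental and 0.237 in VCaP–ENZ48, an 18.8-fold difference. It was made up of a 6.63-fold lower share of positive cells and a 2.83-fold lower count per positive cell, which was 5.43 UMIs in VCaP parental and 1.92 in VCaP–ENZ48. These parts are not independent, since a lower level per cell also lowers the share with a UMI.

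The 2 VCaP distributions overlapped at their ends. The median of VCaP parental, 3 UMIs at equal depth, was reached by 553 of its cells (55.5%) and by 19 VCaP–ENZ48 cells (2.07%, 1.25 to 3.22%). Its 75th percentile, 6 UMIs, was reached by 291 VCaP parental cells (29.2%) and by 8 VCaP–ENZ48 cells (0.872%, 0.377 to 1.71%). The highest thinned counts were 44 and 14 UMIs.

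**Figure D2:**
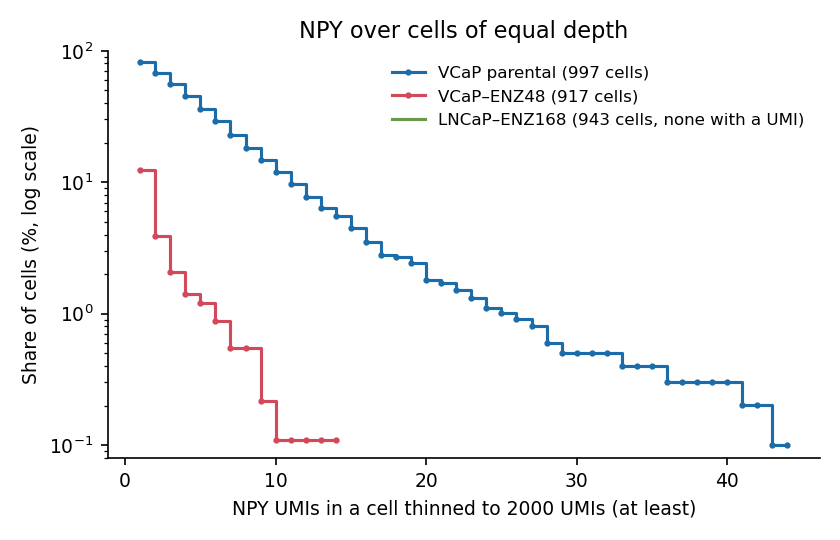
Share of cells, in percent on a log scale, with at least the number of NPY UMIs on the horizontal axis, after each cell was thinned to 2000 UMIs. VCaP parental (997 cells) starts at 81.7% and reaches 44 UMIs, VCaP–ENZ48 (917 cells) starts at 12.3% and reaches 14 UMIs, and none of the 943 LNCaP–ENZ168 cells had a UMI.

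NPY varied more between cells than most genes of its level. If it were spread evenly, so that only Poisson counting varied, the thinned means would give 98.8% positive cells in VCaP parental and 21.1% in VCaP–ENZ48, above the 81.7% and 12.3% found. The excess variance (variance minus mean, divided by the squared mean) was 1.12 in VCaP parental, the 42nd highest of 1628 genes with at least 100 CPM, against a median of 0.0885. The 10 genes nearest to NPY in level had values between 0.0161 and 0.605. Of the genes ranked above NPY, 20 belonged to the S and G2M phase lists. The share of these lists among the 1628 genes was not computed, so nothing is read from that count. In VCaP–ENZ48 the excess variance of NPY was 11.99, the 2nd highest of 1369 genes after CRISPLD1, against a median of 0.191 and a range of -0.17 to 0.761 among the 10 nearest genes.

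A few cells carried much of the NPY left in VCaP–ENZ48. The cell with the most NPY had 89 UMIs, but it was also the deepest, with 117469 UMIs, which put it at 758 CPM. The next cells had 65 NPY UMIs of 16123 (4032 CPM), 56 of 7886 (7101 CPM) and 41 of 11224 (3653 CPM), all above the mean level of VCaP parental. The 10 cells with the most NPY held 435 of its UMIs, and the level without them was 81.4 CPM. Doublets were not identified, and their part in such cells was not tested.

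The NPY level depended little on depth in VCaP parental. From the shallowest to the deepest of 4 equal groups of cells it was 2071, 2309, 2089 and 2295 CPM. In VCaP–ENZ48 the same groups were at 70.2 (53.7 to 90.1), 192 (173 to 212), 111 (101 to 123) and 93.8 CPM (87.2 to 101). NPY was thus highest in the lower middle group of VCaP–ENZ48, and each VCaP–ENZ48 group was more than 10-fold below each VCaP parental group. That lower middle group held 374 NPY UMIs, of which single cells supplied 56 and 41, so its rank leans on a few cells.

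VCaP parental cells with the most mRNA of S and G2M phase genes held less NPY than the others. Cells were placed in bands by their thinned UMIs over 97 S and G2M phase genes, with limits that put nearly equal numbers of VCaP parental cells in each band. NPY in VCaP parental was at 2456 CPM (2417 to 2494) in the 352 cells of the low band, 2690 CPM (2650 to 2731) in the 313 cells of the middle band and 1539 CPM (1509 to 1569) in the 332 cells of the high band. In VCaP–ENZ48 the low band held 864 of 917 cells (94.2%), the middle band 44 and the high band 9. NPY there was at 101.5 CPM (96.2 to 107), 163 CPM (136 to 193) and 376 CPM (307 to 456). In the high band 89 of 104 NPY UMIs came from the deepest cell, and without it the level was 94.3 CPM.

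The bands thus held different shares of the 2 VCaP libraries, and NPY was lower after ENZ within each band. The log2 ratio was -4.58 (-4.68 to -4.52) in the low band and -4.04 (-4.30 to -3.80) in the middle band. In the high band it was -2.03 (-2.33 to -1.75) over only 9 VCaP–ENZ48 cells, and this value rests on the deepest cell. LNCaP–ENZ168 had 0 NPY UMIs in its 734, 128 and 81 cells of the low, middle and high bands.

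**Figure D3:**
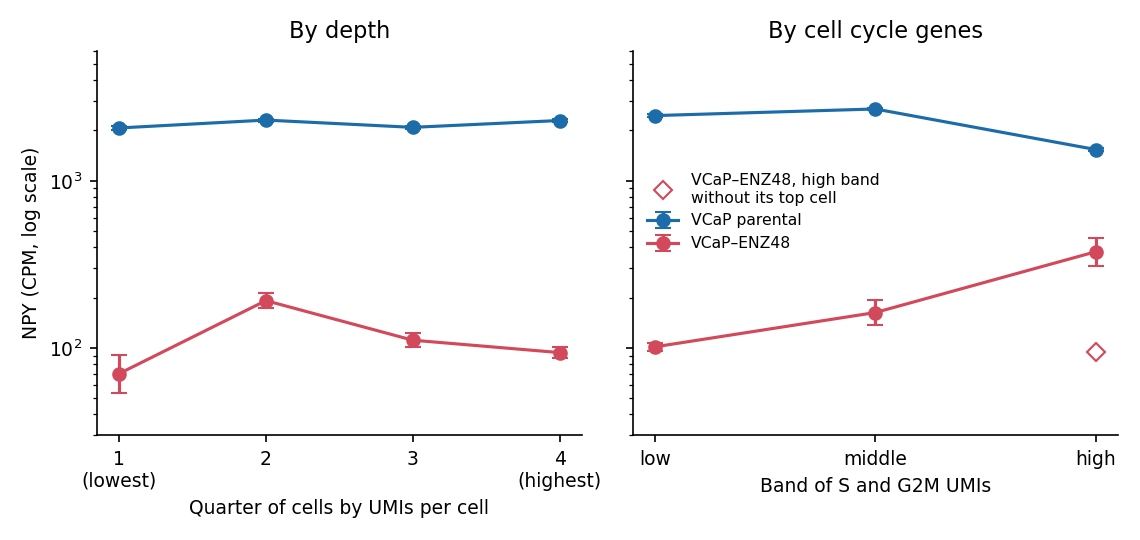
NPY in CPM on a log scale in 4 groups of cells ordered by UMIs per cell (left) and in 3 bands of S and G2M UMIs (right), for both VCaP libraries, with exact Poisson 95% intervals as bars. The open diamond gives the high band of VCaP–ENZ48 without its top cell, 94.3 CPM against 376 CPM with it. VCaP parental lies above VCaP–ENZ48 in every group, and its high band is its lowest at 1539 CPM.

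Across the 997 thinned VCaP parental cells, the highest correlations with NPY included 2 genes of prostate secretion and the lowest were cell cycle genes, and all of them were weak. Pearson's r was taken between log UMIs of NPY and of 1627 genes with at least 100 CPM, over cells that share 1 library and 1 depth, and its median was -0.0020. The highest values were 0.24 for ACPP, which encodes prostatic acid phosphatase, 0.22 for STEAP1, a membrane protein of prostate epithelium, and 0.20 for KLK2. SPON2, a secreted matrix protein, followed at 0.17, MCCC2, an enzyme of leucine breakdown, at 0.16, and RPL37, a ribosomal protein, at 0.13. The lowest were -0.21 for the spindle factor TPX2, -0.21 for cyclin B1 (CCNB1), -0.20 for the cohesin subunit RAD21 and -0.19 for CDKN3, a cell cycle phosphatase. The summed androgen-induced genes gave 0.23, the summed S and G2M genes -0.12 and ERG 0.092. KLK2 supplied a mean of 3.14 of the 5.02 UMIs per cell in the androgen-induced sum, so that value largely repeats its own. In VCaP–ENZ48, where most cells have no NPY UMI, the 6 highest genes gave values between -0.027 and 0.095.

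The genes that went most with NPY between cells differed in their ratio between libraries, and none was as much lower as NPY. ACPP was at 1959 CPM in VCaP parental and 3767 CPM in VCaP–ENZ48 (log2 ratio 0.94), and KLK2 had a log2 ratio of 0.97. SPON2 (0.50) and RPL37 (0.31) were also higher. STEAP1 was at 656 and 369 CPM (-0.83), and MCCC2 at 469 and 71.9 CPM (-2.69). The genes of lowest correlation were lower too, with log2 ratios of -3.48 for TPX2, -3.64 for CCNB1, -1.11 for RAD21 and -3.56 for CDKN3. Of the 7 androgen-induced genes listed, 6 reached a mean of 10 CPM in the VCaP libraries. Of these, 3 were at least 2-fold lower (6.77% of all genes compared) and 0 at least 2-fold higher (8.19%). Their median was -0.87 against -0.066 over all genes.

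The 19 VCaP–ENZ48 cells at or above the VCaP parental median of NPY were set beside the 898 below it. Which genes to show here was decided after values were seen, and the cells were selected on NPY, so these values are descriptions. Both sets had the same median of 4 S and G2M UMIs and similar median depths of 11224 and 11735 UMIs, with median mitochondrial shares of 7.82 and 6.96%. The deepest VCaP–ENZ48 cell, of 117469 UMIs, was among the 19 and weighs most in their summed CPM. CCN3, a matricellular protein much higher in VCaP–ENZ48 than in VCaP parental, was at 298 CPM (244 to 359) in the 19 cells and 329 CPM (320 to 339) in the others. FBLN2, an extracellular matrix protein with a like difference between the libraries, was at 182 CPM (141 to 231) and 207 CPM (199 to 214). In VCaP parental as a whole these genes were at 28.4 and 19.7 CPM, so the 19 cells had levels of both near those of other VCaP–ENZ48 cells. This did not hold for PLA2G2A, which was at 30.8 CPM in VCaP parental and 580 CPM in VCaP–ENZ48. Without its top cell in each set, PLA2G2A was at 247 CPM in the 19 cells and 562 CPM in the others.

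MCCC2 and STEAP1 were higher in these 19 cells than in the 898 others. MCCC2 was at 245 CPM (197 to 302) against 67.4 CPM (63.1 to 71.8), and at 200 against 66.0 CPM without the cell of most MCCC2 in each set, which held 40 of 89 MCCC2 UMIs in the 19 cells. ACPP was lower in the 19 cells, at 2577 CPM (2414 to 2748) against 3803 CPM (3771 to 3836), and at 3212 against 3781 CPM without its top cell in each set. STEAP1 was at 617 CPM (539 to 704) against 363 CPM (353 to 373), and at 603 against 361 CPM without the cell of most STEAP1. ERG was at 85.4 CPM (58.1 to 121) against 56.4 CPM (52.5 to 60.5). The androgen-induced gene FKBP5 was at 44.1 CPM (25.2 to 71.6) against 23.3 CPM (20.8 to 25.9), with 16 UMIs in all of the 19 cells, 8 of them in 1 cell. SLC45A3, also induced by androgen, was at 24.8 CPM (11.3 to 47.1) against 22.9 CPM (20.4 to 25.6). For KLK2 the direction rested on 1 cell, with 2616 against 3068 CPM and 3244 against 3045 CPM without the top cell of each set. The direction for the phospholipase PLA2G2A also rested on 1 cell, with 631 against 580 CPM, and 247 against 562 CPM without the top cell of each set. Among the 19 cells, the top cell for MCCC2, ACPP, STEAP1, FKBP5 and KLK2 was the same one, the deepest of VCaP–ENZ48. The values without it are therefore not separate checks.

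Of the Y peptide family, only NPY was expressed at a level that could be compared. PYY, which encodes peptide YY, had 1 UMI in VCaP parental and 0 in the other libraries, and PPY, which encodes pancreatic polypeptide, had 0 in all 3. Of the 5 receptor genes, NPY2R had 16 UMIs in VCaP parental and 15 in VCaP–ENZ48 (0.820 and 1.05 CPM), and 0 in LNCaP–ENZ168. NPY1R had 3 UMIs in LNCaP–ENZ168 and 0 in both VCaP libraries. NPY4R, NPY4R2 and NPY5R had 0 UMIs in all 3 libraries, which allows up to 0.154, 0.210 and 0.475 CPM in VCaP parental, VCaP–ENZ48 and LNCaP–ENZ168.

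The enzymes that process the precursor were low in VCaP. The convertases PCSK1 and PCSK2 had at most 1 UMI in any library. CPE, carboxypeptidase E, was at 9.38 CPM in VCaP parental, 12.7 CPM in VCaP–ENZ48 (log2 ratio 0.40, 0.13 to 0.74) and 106 CPM in LNCaP–ENZ168. PAM, the amidating enzyme, was at 0.564, 1.26 and 4.12 CPM in the same order. PCSK1N, which encodes an inhibitor of PCSK1, was at 1.23, 1.68 and 9.66 CPM, and SCG5, which encodes a chaperone of PCSK2, at 1.33, 0.559 and 0 CPM. CPE, PAM and PCSK1N were thus highest in the library without NPY.

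Of the peptidases that cut the mature peptide, MME and DPP4 had more than 1 UMI. MME, which encodes neprilysin, was at 12.1 CPM in VCaP parental, 17.8 CPM in VCaP–ENZ48 (log2 ratio 0.52, 0.29 to 0.82) and 2673 CPM in LNCaP–ENZ168. DPP4, a dipeptidyl peptidase that trims the amino end of NPY, was at 10.8, 4.41 and 0.475 CPM, with a mean in VCaP under the 10 CPM minimum. FAP had 1 UMI, in VCaP–ENZ48, and XPNPEP2 had 0.

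Most granins and other genes of dense-core vesicles, which store peptides such as NPY, did not share its direction where they reached the minimum level. Of 9 genes 5 reached the minimum, of which 4 were at least 2-fold higher in VCaP–ENZ48 (8.19% of all genes compared, and 5.03 to 12.8% under the other settings), 0 were at least 2-fold lower (6.77%), and the median log2 ratio was 1.34 against -0.066 over all genes. CHGB was at 75.6 CPM in VCaP parental and 192 CPM in VCaP–ENZ48 (1.34, 1.25 to 1.44). CADPS, which primes vesicles for release, was at 10.8 and 56.6 CPM (2.29), SCG2 at 5.74 and 17.9 CPM (1.49) and CHGA at 15.1 and 32.2 CPM (1.05). CHGA was under 2-fold with TMM (0.77) and median-of-ratios factors (0.83). SCG3 was slightly lower, at 167 and 154 CPM (-0.11, -0.19 to -0.032). Its log2 ratio was -0.40 with TMM and -0.34 with median-of-ratios factors, and its sign turned without mitochondrial and ribosomal protein genes (0.024). In LNCaP–ENZ168 CHGA, SCG3 and CADPS had 0 UMIs, CHGB had 1 and SCG2 had 2.

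Among 48 other neuropeptide genes, 31 had a UMI in a library and 4 reached the minimum, of which 2 were at least 2-fold lower in VCaP–ENZ48 (6.77% of all genes compared) and 0 at least 2-fold higher (8.19%). Their median log2 ratio was -0.56 against -0.066 over all genes. NMU, which encodes neuromedin U, was at 81.7 CPM in VCaP parental, 8.88 CPM in VCaP–ENZ48 (log2 ratio -3.07, -3.47 to -2.94) and 16.9 CPM in LNCaP–ENZ168. GAL, which encodes galanin, was at 46.9, 18.1 and 16.2 CPM (-1.33, -1.58 to -1.17). Both were thus lower after ENZ, as NPY was, but were still detected in LNCaP–ENZ168. ADM, which encodes adrenomedullin, was at 33.8, 45.6 and 0.792 CPM (0.42). NTS, which encodes neurotensin, was at 13.5, 15.7 and 2.22 CPM (0.20), and its sign turned with TMM (-0.069) and median-of-ratios factors (-0.012). NMU was the most abundant of the 48 in VCaP parental, where NPY was at 2212 CPM.

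**Figure D4:**
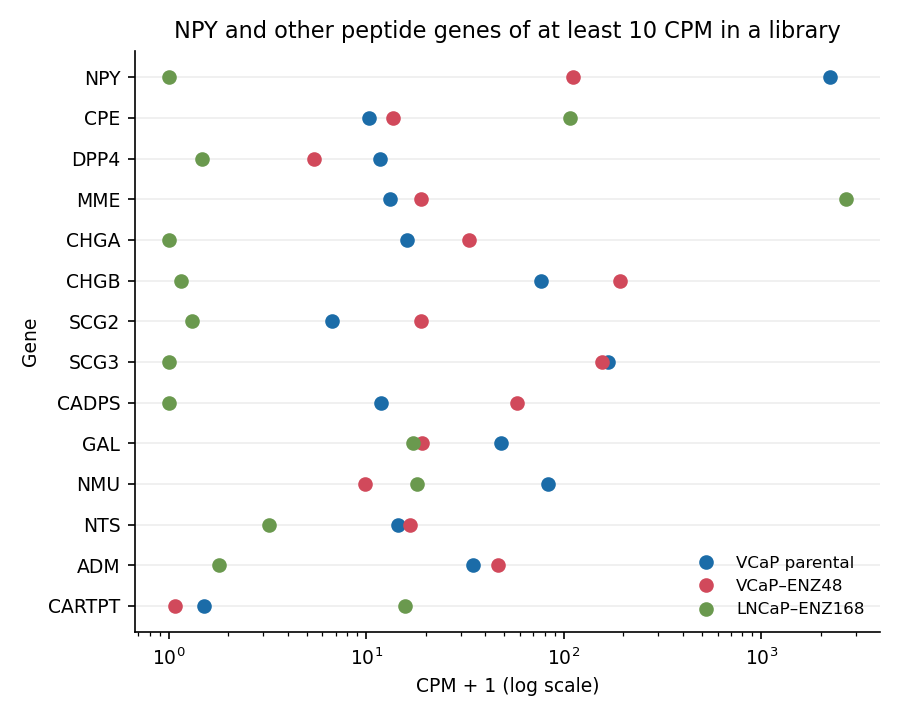
Levels of NPY and of the processing, cleavage, vesicle and other neuropeptide genes that reached 10 CPM in at least 1 library, as CPM + 1 on a log scale, 1 point for each library and no error shown. Points at 1 are genes with 0 UMIs. NPY is the highest of these genes in VCaP parental (2212 CPM), and MME is the highest in LNCaP–ENZ168 (2673 CPM).

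The genes around NPY on chromosome 7 differed much less between the VCaP libraries than NPY did. Within 1 Mb on either side the annotation lists 40 genes, 0 of them overlapping NPY, of which 17 were matched by name to a gene with a UMI and 6 reached 10 CPM in a library. Of the 5 whose mean in VCaP was 10 CPM or more, 1 was at least 2-fold lower (6.77% of all genes compared) and 0 at least 2-fold higher (8.19%), with a median log2 ratio of -0.42 against -0.066 over all genes. CYCS, which encodes cytochrome c and lies 827 kb after NPY, was at 742 CPM in VCaP parental and 241 CPM in VCaP–ENZ48 (-1.62, -1.67 to -1.57). OSBPL3, a lipid transfer protein gene 505 kb after NPY, was at 26.5 and 15.03 CPM (-0.78). PALS2, a scaffold protein gene 281 kb after NPY that the files list under its older symbol, was at 64.4 and 55.3 CPM (-0.22, -0.35 to -0.089). The ribosome assembly gene MALSU1 was at 69.8 and 56.3 CPM (-0.31), the splicing factor gene TRA2A at 83.6 and 62.1 CPM (-0.42) and CCDC126 at 5.12 and 4.20 CPM (-0.24).

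In LNCaP–ENZ168, where NPY was not detected, these neighbours were present. MALSU1 was at 95.8 CPM, TRA2A at 97.4, CCDC126 at 15.5, PALS2 at 18.5, OSBPL3 at 4.91 and CYCS at 397 CPM. The nearest matched gene before NPY, STK31, a kinase gene, had 1, 1 and 2 UMIs in VCaP parental, VCaP–ENZ48 and LNCaP–ENZ168, and the nearest after it was PALS2. GSDME, a gasdermin gene 406 kb after NPY, had 20, 48 and 31 UMIs.

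**Figure D5:**
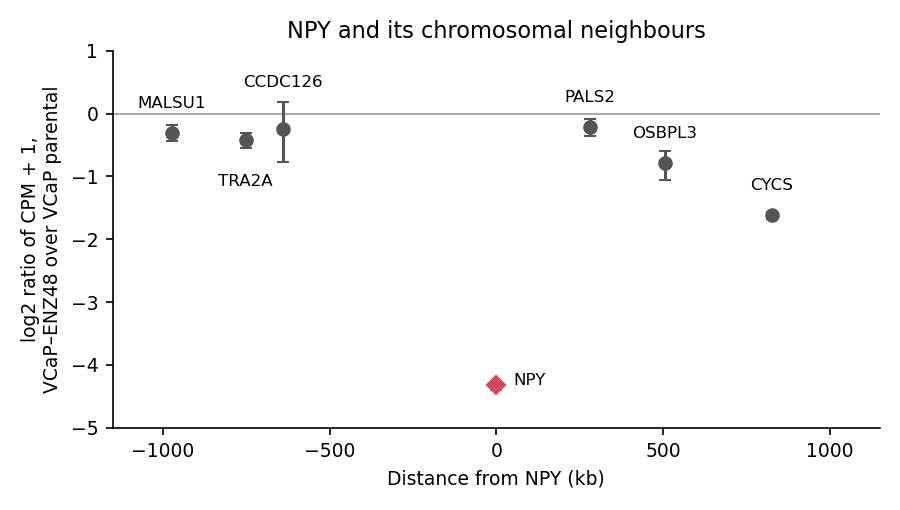
Log2 ratio of CPM + 1, VCaP–ENZ48 over VCaP parental, against distance from NPY in kb, for the 6 genes within 1 Mb that reached 10 CPM in a library (circles) and for NPY (diamond), with exact conditional 95% intervals as bars. NPY lies at -4.32, and the neighbours lie between -1.62 and -0.22.

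Over the 3 libraries, the genes whose pattern of log2 (CPM + 1) was nearest to that of NPY were high in both VCaP libraries and absent or nearly absent in LNCaP–ENZ168. Likeness was the Euclidean distance between centred values, taken over 4499 genes with at least 50 CPM in a library. The 5 nearest were MT1E (2.40), ADIRF (2.87), ZNF22 (3.02), CRISP3 (3.19) and ITM2A (3.20). None had the step between the VCaP libraries that NPY had, since their log2 ratios lay between -1.03 and -0.10. CRISP3, a secreted protein of prostate and salivary gland, was at 276, 161 and 1.27 CPM, and the zinc finger gene ZNF22 at 210, 144 and 0.158 CPM. With only 3 points, this likeness describes these libraries alone.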

How the data were processed

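Drop-seq reads of 3 libraries were aligned to GRCh38 with STAR 2.7.3a and counted with Drop-seq tools 2.3.0 and Picard Tools 2.18.22 by the authors, who deposited raw UMI counts per gene and barcode. A gene not listed in a file, under its symbol or an older one that no other gene could claim, was taken as 0. A barcode counted as a cell if it had 300 genes or more, 500 UMIs or more and a mitochondrial share of no more than 25%. No doublet caller was run. UMIs were summed per library and scaled to CPM, and ratios used a pseudocount of 1 CPM.

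With 1 library per group no test was made. Sums carry exact Poisson, ratios exact conditional and shares Clopper-Pearson intervals. Cells were thinned without replacement to 2000 UMIs, and bands used the S and G2M lists of Seurat 5.3.0. NPY, the gene lists and the comparisons were chosen with earlier results of these data known. Named genes were those of the peptide lists (by name with a mean of at least 10 CPM outside the Y family, receptor, processing and cleavage lists), neighbours within 1 Mb that reached 10 CPM, the 6 highest and 4 lowest correlations, the 5 nearest patterns and the label checks, of which 1 gene is not reported here, nor is 1 promoter motif. Genes shown in the cells of high NPY, genes at 0 in LNCaP–ENZ168, the nearest matched neighbours and CRISPLD1 were added after values were seen. Gene positions follow a newer Gencode release for the same build than that used for counting. Alternatives covered cell filters, depth, barcodes, cell weighting, scaling with edgeR 4.0.16 or median-of-ratios, pseudocount, thinning and minimum level. The steps were tested on simulated data. Software was R 4.3.3 and Python 3.11.15, with scipy 1.17.1, numpy 2.4.6, matplotlib 3.10.9 and pandas 2.3.3.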

Additional observations from a re-analysis of the deposited data

How the results depend on the processing

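Of 91 values under alternatives, 55 stayed within the counting interval of the reported value (for the count of genes, within 1.5 times it), 36 did not and 0 changed direction. Levels, shares and counts cannot change sign, so only log2 ratios could have changed direction. The levels and shares of LNCaP–ENZ168 are among the 55 but could not move, since none of its barcodes held an NPY UMI. Values that moved are given in the order of CPM in VCaP parental and VCaP–ENZ48, the log2 ratio between them (-4.32) and the log2 bound of LNCaP–ENZ168 over VCaP–ENZ48 (-7.86). TMM gave 2860, 116, -4.61 and -8.39, and median-of-ratios 2759, 117, -4.55 and -8.35. Without mitochondrial and ribosomal protein genes they were 3037, 166, -4.19 and -8.14. Only barcodes ending in a base (138 and 127 VCaP cells) gave 2470, 104, -4.55 and -7.47, and cells of low S and G2M UMIs gave 2456, 101.5, -4.58 and -7.34. Without barcodes above 3 times the median depth VCaP–ENZ48 was at 116 CPM, the ratio -4.25 and the bound -7.72. Cells weighted equally gave 116, -4.23 and -7.93. The stricter cell filter gave a bound of -7.72. The ratio was -4.21 with a pseudocount of 10 CPM and -4.22 in cells of 10000 to 20000 UMIs. Positive cells were 68.5% and 8.66% when thinned to 1000 UMIs, and 89.6% and 20.3% when thinned to 4000 UMIs. Genes at least 2-fold lower were 245 with a minimum of 50 CPM, 1032 with TMM and 919 with median-of-ratios, against 523, and 699 with a minimum of 1 CPM. The cause was not tested. Without the VCaP–ENZ48 cell of most NPY UMIs, an alternative chosen after seeing the data, the level was 104.8 CPM and the ratio -4.39. The pseudocount gives no other value for the bound, which uses the limit of 3 UMIs.

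No paired analysis was possible because there is a single library of each kind. The spread between cultures is unknown and no interval covers it. With 0 taken as at most 3 counts, depth limits the LNCaP–ENZ168 level to 0.475 CPM (exact Poisson upper limit 0.584 CPM) and says nothing below that.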
